A study of Homo sapiens with 12 samples.

Results

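The miRNAs described here are those of the miR-205, miR-455, miR-135a and miR-135b hairpins in OCI-My5 cells, a human multiple myeloma cell line. They were selected on the increase in their steady-state levels when My5/CRBN cells were treated with lenalidomide, so the values of those comparisons are a description and support nothing. All rows of the array table for any arm of these hairpins were taken, and this gave 5 of the 372 miRNA assays: hsa-miR-205-5p, hsa-miR-205-3p, hsa-miR-455-5p, hsa-miR-135a-5p and hsa-miR-135b-5p. All 5 had a Ct under 35 on all 12 arrays. For miR-455 and for both miR-135 hairpins only the 5p arm was measured among the rows used here, so the arms of a hairpin can be compared for miR-205 alone.

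The study asked how steady-state levels of miRNAs in myeloma cells change with CRBN, with AGO2 and with lenalidomide, an immunomodulatory drug (IMiD) that binds CRBN, the substrate receptor of a ubiquitin ligase. My5/LV is the line transduced with the lentiviral vector only, with little CRBN and resistance to IMiDs. My5/CRBN cells overexpress CRBN from a lentivirus and are IMiD-sensitive. RNA of each cell line was taken from un-treated cells, from cells 3 days after an shRNA against EIF2C2 (My5/LV/sh72 and My5/CRBN/sh72), from cells given EIF2C2 cDNA by lentivirus (My5/LV/EIF2C2 and My5/CRBN/EIF2C2), from cells kept in lenalidomide at 10 µM for either 72 (+Len72hrs) or 120 hours (+Len120hrs), and from cells with EIF2C2 cDNA and 72 hours of lenalidomide. EIF2C2 is the older name of the gene for AGO2, the protein that holds a miRNA and its target together. None of the 12 arrays is of cells with a control shRNA, an empty cDNA vector or the drug's solvent, and each condition has 1 array. Neither CRBN nor EIF2C2 mRNA is measured by the array, so these data cannot check the labels against their targets. Western blots in the paper showed more CRBN protein in My5/CRBN than My5/LV cells. They also showed less AGO2 with sh72 and more with EIF2C2 cDNA in both lines.

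The Ct counts the PCR cycles a well needs to cross the detection threshold, so the less of a miRNA there is, the higher its Ct, and a difference of 1 cycle is close to a difference of 2 fold. The normalized Ct is the Ct minus the mean Ct of 6 small-RNA control wells (SNORD61, SNORD68, SNORD72, SNORD95, SNORD96A and RNU6-2) of the same array. A log2 fold change is obtained by subtracting the normalized Ct of a test array from that of its control, and a miRNA is called higher or lower where it differs by at least 3 fold, a log2 fold change of 1.58. With 1 array per condition no difference has a replicate check and no p-value is given, and the SD that the 6 control wells show in their log2 fold changes stands for the spread between wells of a pair of arrays. Between 324 and 367 miRNAs had a Ct under 35 on an array. The mean Ct of the control wells lay between 18.7 and 21.9, and the 2 wells of the same control assay differed by a root mean square of 0.187 cycles for the reverse transcription control, 0.383 cycles for the positive PCR control and 1.43 cycles for cel-miR-39-3p, whose Ct lay between 31.5 and the cap of 35. The blood-cell miRNA miR-142-3p had the highest level of the 8 blood-lineage marker assays on all 12 arrays, with a normalized Ct from -6.27 to -2.42. The highest epithelial marker of 8 assays, miR-200c-3p, had a normalized Ct from 4.03 to 6.58. The lists as a whole did not differ in this way. Their median normalized Ct was 9.21 (blood-lineage) and 9.17 (epithelial) in un-treated My5/LV cells, and 8.72 and 9.60 in un-treated My5/CRBN cells. With sh72 in My5/LV cells it was 11.15 and 9.55.

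A miRNA is cut from a hairpin transcript, and the strand that is kept pairs through its seed, bases 2 to 8, with target mRNAs in AGO2. miR-205 is known from epithelial cells, where it acts with the miR-200 family against the ZEB repressors of E-cadherin. miR-455 lies in the collagen gene COL27A1 and is known from cartilage. miR-135a and miR-135b form a family that is known to target the Wnt pathway gene APC. The mature sequences of RefSeq (GRCh38.p14), found for 5 of 5 assays, are printed to show how the members relate, with the seed in capitals.

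hsa-miR-205-5p: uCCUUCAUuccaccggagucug
hsa-miR-205-3p: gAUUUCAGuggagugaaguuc
hsa-miR-455-5p: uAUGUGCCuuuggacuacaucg
hsa-miR-135a-5p: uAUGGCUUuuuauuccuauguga
hsa-miR-135b-5p: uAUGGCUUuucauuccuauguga

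miR-135a-5p and miR-135b-5p share the seed AUGGCUU, which no other mature miRNA of the RefSeq table has. They differ at 1 of 23 bases, U11C counted from the 5′ end of miR-135a-5p, outside the seed. The seeds of the other 3 members are each found in no other mature miRNA of that table. Whether the miR-135a-5p and miR-135b-5p assays read each other's target was not tested.

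miR-205 has its gene at chr1:209432133-209432242 on the plus strand, within the span of MIR205HG, a long non-coding RNA gene. Its 110-base hairpin is shown because both arms were measured, with miR-205-5p first and miR-205-3p second in capitals.

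MIR205 hairpin: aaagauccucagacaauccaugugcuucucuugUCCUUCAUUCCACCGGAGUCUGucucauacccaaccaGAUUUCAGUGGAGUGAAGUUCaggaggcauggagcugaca

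miR-205-5p lies at chr1:209432166-209432187 and miR-205-3p at chr1:209432203-209432223. miR-455-5p lies at chr9:114209449-114209470 on the plus strand, within the span of COL27A1. miR-135b-5p lies at chr1:205448361-205448383 on the minus strand, within the spans of LEMD1 and BLACAT1. The sequence of miR-135a-5p lies at chr3:52294270-52294292 on the minus strand (MIR135A1, within the span of GLYCTK), and the same 23 bases lie in a second hairpin, MIR135A2, at chr12:97563812-97563911 within the span of RMST. The assay cannot tell these 2 sources apart.

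The 5p arm of miR-205 was at low levels in 9 of the 12 arrays and much higher in the 3 My5/CRBN arrays with lenalidomide. In My5/LV cells the Ct of miR-205-5p was 30.7 without treatment, 31.6 with sh72, 32.04 with EIF2C2 cDNA, 30.4 after 72 hours of lenalidomide, 30.4 after 120 hours, and 29.5 with EIF2C2 cDNA and lenalidomide. In My5/CRBN cells it was 30.3 without treatment, 31.2 with sh72 and 33.7 with EIF2C2 cDNA, and then 25.4 after 72 hours, 24.3 after 120 hours and 27.4 with EIF2C2 cDNA and lenalidomide. After normalization the 3 lenalidomide arrays of My5/CRBN cells had values of 5.55 (120 hours), 6.33 (72 hours) and 7.08 (EIF2C2 cDNA and 72 hours), and the other 9 arrays lay between 9.52 and 11.80. The gap between these sets, 2.44 cycles, was larger than the SD of the control wells of the 2 arrays on its sides, 0.37. Among the other 9 arrays, the 6 from My5/LV to My5/LV/EIF2C2, with normalized Ct from 10.52 to 10.89, followed each other by less than that spread at each step.

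miR-455-5p separated the same 3 arrays. Its Ct in My5/LV cells was 32.5 without treatment, 33.9 with sh72, 32.5 with EIF2C2 cDNA, 31.8 after 72 hours of lenalidomide, 30.05 after 120 hours, and 29.9 with EIF2C2 cDNA and lenalidomide. For My5/CRBN cells the values were 32.01 without treatment, 32.8 with sh72, 32.1 with EIF2C2 cDNA, 27.1 after 72 hours, 26.1 after 120 hours and 27.7 with EIF2C2 cDNA and lenalidomide. The 3 lenalidomide arrays of My5/CRBN cells had normalized Ct values from 7.36 to 8.03, and the other 9 arrays from 10.27 to 12.92. The gap was 2.24 cycles against a control-well SD of 0.57. The arrays My5/CRBN+Len120hrs and My5/CRBN/EIF2C2+Len72hrs did not differ beyond their spread.

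The miR-135 assays had the lowest Ct values of the 5, and lenalidomide-treated arrays of both cell lines stood at the top of their order. The Ct of miR-135a-5p in My5/LV cells was 24.04 without treatment, 25.5 with sh72, 24.8 with EIF2C2 cDNA, 23.1 and 21.7 after 72 and 120 hours of lenalidomide, and 22.7 with EIF2C2 cDNA and lenalidomide. In the My5/CRBN line it was 25.9 without treatment, 24.3 with sh72, 28.2 with EIF2C2 cDNA, 20.7 and 19.8 after 72 and 120 hours, and 23.7 with EIF2C2 cDNA and lenalidomide. The order of normalized Ct began with My5/CRBN+Len120hrs (1.08), My5/CRBN+Len72hrs (1.64), My5/LV+Len120hrs (2.06) and My5/LV+Len72hrs (2.74), each step larger than the spread, and ended with un-treated My5/CRBN (5.07) and My5/CRBN/EIF2C2 (6.32). The 4 arrays from My5/LV/EIF2C2 (3.66) to My5/LV/EIF2C2+Len72hrs (4.01) followed each other within the spread.

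For miR-135b-5p the Ct in My5/LV cells was 22.4 without treatment, 24.7 with sh72, 24.8 with EIF2C2 cDNA, 22.5 and 20.7 after 72 and 120 hours of lenalidomide, and 22.2 with EIF2C2 cDNA and lenalidomide. The Ct in My5/CRBN cells was 23.2 without treatment, 23.4 with sh72, 26.0 with EIF2C2 cDNA, 19.8 and 18.9 after 72 and 120 hours, and 22.8 with EIF2C2 cDNA and lenalidomide. The same 3 arrays headed the order as for miR-135a-5p, with normalized Ct values of 0.17, 0.73 and 1.07, although the last 2 of them did not differ beyond their spread. My5/CRBN/EIF2C2 (4.16) was again the lowest, within the spread of My5/LV/sh72 (3.77). The range over the 12 arrays was 37.6 fold for miR-135a-5p and 15.9 fold for miR-135b-5p, against 76.2 fold for miR-205-5p and 47.4 fold for miR-455-5p.

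miR-205-3p did not follow its 5p arm. Its Ct lay between 31.3 and 34.2, a range where the 2 cel-miR-39-3p wells also lay and where small differences are of low precision. The highest normalized level was on My5/LV/EIF2C2 (11.44) and the lowest on un-treated My5/LV (14.05), a range of 6.11 fold. On the 3 lenalidomide arrays of My5/CRBN cells its normalized Ct was 12.23, 12.23 and 13.45, beside 12.22 in un-treated My5/CRBN cells.

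**Figure D1:**
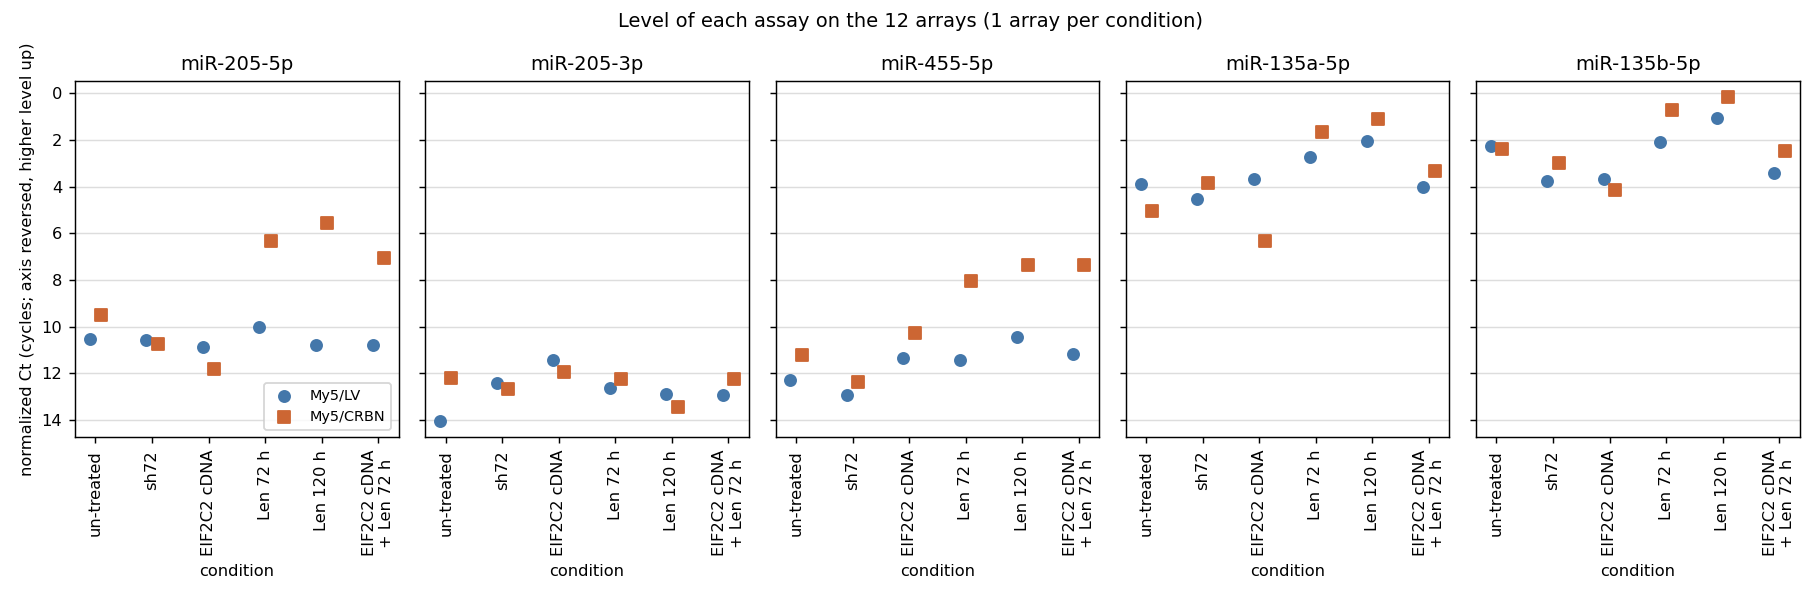
Normalized Ct in cycles (vertical axis, reversed so that higher levels lie higher) of the 5 assays on the 12 arrays, by condition (horizontal axis), with blue circles for My5/LV and orange squares for My5/CRBN cells and 1 array per point. The 3 My5/CRBN arrays with lenalidomide lie from 5.55 to 7.08 for miR-205-5p and from 7.36 to 8.03 for miR-455-5p, above the other 9, whereas miR-135a-5p and miR-135b-5p are also high on My5/LV+Len120hrs.

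In My5/CRBN cells, the comparison that chose the members, 4 of the 5 were at least 3 fold higher after 72 hours of lenalidomide, where 9.95% of all 372 miRNAs were, and the same 4 after 120 hours, where 5.11% were. The log2 fold changes after 72 hours were 3.43 for miR-135a-5p, 3.19 for miR-205-5p, 3.18 for miR-455-5p, 1.64 for miR-135b-5p and -0.01 for miR-205-3p, beside a control-well SD of 0.22 and a median of 0.30 over all miRNAs. The 72-hour value of miR-135b-5p was under 3 fold with the global mean of the miRNAs (1.29) or the reverse transcription control wells (1.51) as normalizer. After 120 hours they were 3.98, 3.97, 3.86, 2.20 and -1.23 in the same order, beside an SD of 0.22 and a median of -0.15. The 2 times share the un-treated My5/CRBN array. By size of increase miR-135a-5p was rank 1 of 372 at both times, miR-205-5p was rank 5 and then 2, and miR-455-5p was rank 6 and then 3. At 120 hours the next miRNA, miR-144-5p, had a log2 fold change of 2.68. miR-135b-5p was rank 35 at 72 hours and rank 8 at 120 hours, just ahead of miR-30c-1-3p (2.19). Among the 122 miRNAs that, like miR-205 and miR-455, had a Ct of at least 30 in un-treated My5/LV cells, 19.7% were at least 3 fold higher after 72 hours and 9.02% after 120 hours.

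From 72 to 120 hours in My5/CRBN cells the 4 increased members changed by a further 0.56 to 0.78 on the log2 scale, each more than the control-well SD of 0.30, while the median of all miRNAs changed by -0.40. miR-205-3p changed by -1.22. None of the 5 passed 3 fold in this comparison, where 6 of the 372 miRNAs were at least 3 fold higher and 82 lower.

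The comparison of My5/CRBN/EIF2C2 cells with and without lenalidomide shares no array with those that chose the members. The choice was nevertheless made with earlier results of these data known. The ranks and counts of this pair are therefore also a description and support nothing. The Ct of miR-205-5p was 33.7 without and 27.4 with the drug, 26.4 fold higher after normalization (log2 fold change 4.72), and this was rank 1 of 372. With a Ct cap of 32 in the place of 35 the log2 fold change was 3.06. miR-135a-5p went from 28.2 to 23.7 (7.82 fold, rank 2), miR-455-5p from 32.1 to 27.7 (7.50 fold, rank 3) and miR-135b-5p from 26.0 to 22.8 (3.26 fold, rank 24). Thus 4 of the 5 members were at least 3 fold higher in this pair of arrays, against 8.33% of all 372 miRNAs and, among those with a Ct of at least 30 in un-treated My5/LV cells, 9.02%. The control-well SD was 0.45 and the median over all miRNAs 0.15. miR-205-3p had a log2 fold change of -0.27, within that SD. The normalizer bears on this count: with the global mean in place of the control wells 16 of the 372 miRNAs were at least 3 fold higher and 30 lower, and with RNU6 alone 12 higher and 39 lower, against 31 higher and 9 lower with the 6 wells. With either, miR-135b-5p fell below 3 fold and the other 3 members did not.

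The control array of this pair had the lowest normalized levels of miR-205-5p, miR-135a-5p and miR-135b-5p of all 12 arrays, which enlarges the fold. Set against un-treated My5/CRBN cells instead, a comparison added after the values were seen, My5/CRBN/EIF2C2+Len72hrs had log2 fold changes of 3.85 for miR-455-5p, 2.44 for miR-205-5p, 1.72 for miR-135a-5p, -0.02 for miR-205-3p and -0.09 for miR-135b-5p, so that 3 of the 5 were at least 3 fold higher. Of all 372 miRNAs 16 were at least 3 fold higher and 3 lower in that comparison. The un-treated My5/CRBN array is also the control of the comparisons that chose the members. Against My5/CRBN+Len72hrs, the array with EIF2C2 cDNA and lenalidomide had lower levels of miR-135a-5p (3.27 fold) and miR-135b-5p (3.32 fold). There miR-205-5p (log2 fold change -0.75) and miR-455-5p (0.67) stayed under 3 fold, with a control-well SD of 0.45. In this pair 26 of the 372 miRNAs were at least 3 fold lower and 4 higher.

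After 72 hours of lenalidomide none of the 5 members had passed 3 fold in My5/LV cells, where 0.538% of all miRNAs were. The log2 fold changes were 1.40 for miR-205-3p, 1.14 for miR-135a-5p, 0.88 for miR-455-5p, 0.52 for miR-205-5p and 0.16 for miR-135b-5p, with a control-well SD of 0.18. After 120 hours miR-455-5p (3.63 fold) and miR-135a-5p (3.53 fold) were past 3 fold, ranks 9 and 11, where 4.3% of all miRNAs were. The Ct of miR-455-5p on the control array was 32.5, and with a cap of 32 its log2 fold change was 1.40, under 3 fold. miR-135b-5p (1.19), miR-205-3p (1.15) and miR-205-5p (-0.26) had log2 fold changes under the threshold, and the control-well SD was 0.41. The value of miR-205-5p was within that SD.

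With EIF2C2 cDNA, none of the 5 members passed 3 fold upwards with lenalidomide in the My5/LV line, where 0.269% of all miRNAs were. The log2 fold changes of the 5p assays lay between -0.35 and 0.25, each within the control-well SD of 0.39, and that of miR-205-3p was -1.48, past 3 fold with RNU6 alone (-2.005) or a cap of 32 (-2.06). The median of all miRNAs was -0.32.

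**Figure D2:**
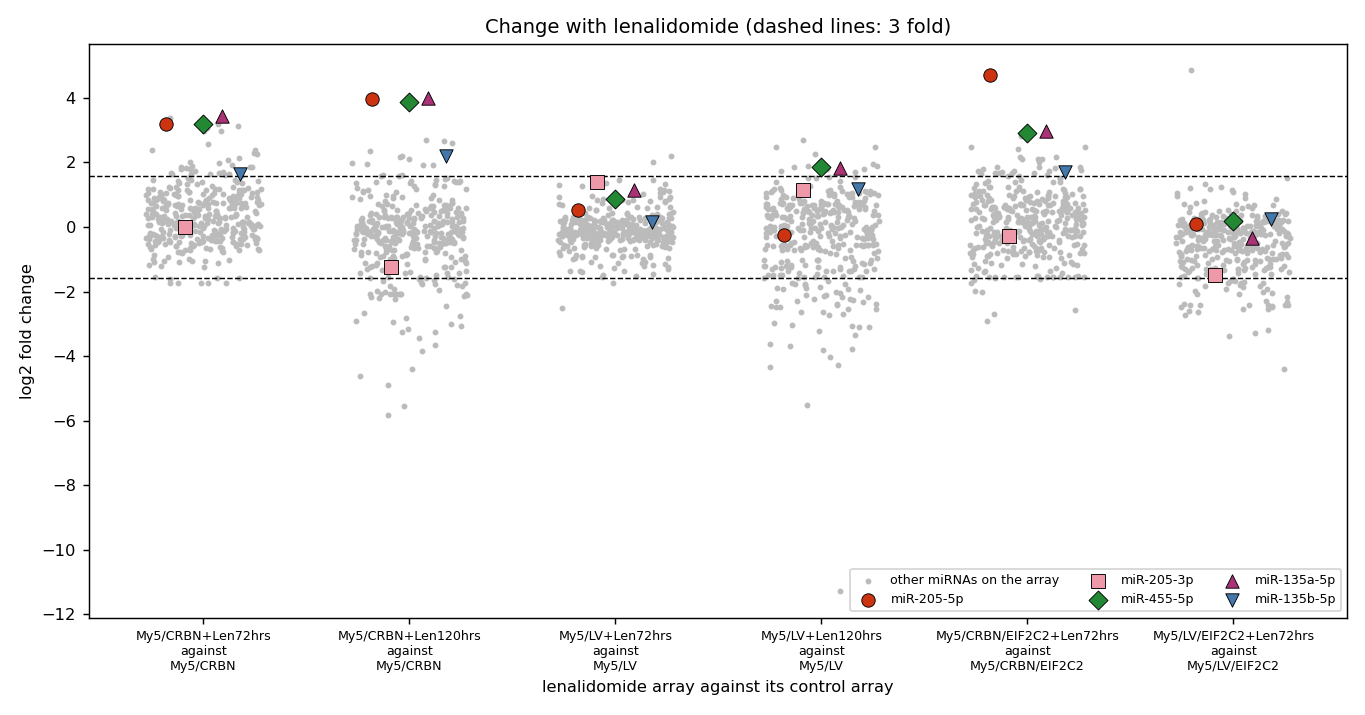
Log2 fold change (vertical axis) of every miRNA on 6 lenalidomide arrays against their control arrays (horizontal axis), with the 5 assays as coloured symbols, the other miRNAs as grey points and dashed lines at 3 fold. The 4 assays other than miR-205-3p lie above the upper line in the 3 My5/CRBN comparisons, at rank 1 for miR-205-5p in My5/CRBN/EIF2C2 cells, and in My5/LV cells 2 of them lie above it, only at 120 hours.

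The cell lines were then compared under the same treatment. Without lenalidomide, miR-205-5p (log2 fold change 1.00) and miR-455-5p (1.09) had somewhat higher values in un-treated My5/CRBN than My5/LV cells. Their Ct was above 30 on both arrays, each value rests on 1 well, and miR-455-5p was at 0.63 with a cap of 32. The duplicate wells of cel-miR-39-3p, at a Ct of 31.5 or more, differed by a root mean square of 1.43 cycles, more than either value. miR-135a-5p (-1.19) was lower, and miR-135b-5p (-0.11) was within the control-well SD of 0.22. Only miR-205-3p was past 3 fold (3.56 fold), where 2.15% of all miRNAs were, and its Ct lay near the cap, at 34.2 in My5/LV cells against 33.0 in My5/CRBN. It was no longer past 3 fold with RNU6 alone (log2 fold change 1.58, under the unrounded threshold) or a cap of 32 (0.63).

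With lenalidomide, miR-205-5p and miR-455-5p were far higher in My5/CRBN cells. After 72 hours their log2 differences between the lines were 3.67 (rank 1) and 3.39 (rank 3), and after 120 hours 5.22 (rank 2) and 3.09 (rank 4). These values use the arrays that chose the members. The pair with EIF2C2 cDNA and 72 hours of lenalidomide uses other arrays, but the choice was made with earlier results of these data known. In that pair miR-455-5p differed by 3.80 (rank 2) and miR-205-5p by 3.72 (rank 3), with a control-well SD of 0.34. In all 3 pairs 2 of the 5 members passed 3 fold in favour of My5/CRBN cells, against 9.41%, 6.45% and 6.99% of all miRNAs. miR-135a-5p and miR-135b-5p were also higher in My5/CRBN cells in all 3 pairs, by log2 differences from 0.66 to 1.37, and none of these passed 3 fold.

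The effect of lenalidomide itself was subtracted between the lines. For miR-205-5p the log2 fold change in My5/CRBN cells exceeded that in My5/LV cells by 2.67 at 72 hours, 4.23 at 120 hours and 4.62 with EIF2C2 cDNA, with control-well SDs of 0.36, 0.41 and 0.31. For miR-455-5p the differences were 2.30, 2.00 and 2.71, for miR-135a-5p 2.29, 2.16 and 3.31, and for miR-135b-5p 1.48, 1.01 and 1.45. For miR-205-3p they were -1.42, -2.38 and 1.21. With EIF2C2 cDNA the value of miR-205-5p was rank 1 of 372, beside a median of 0.63 over all miRNAs. The other members were at rank 11 (miR-135a-5p), 21 (miR-455-5p), 88 (miR-135b-5p) and 108 (miR-205-3p). The values with EIF2C2 cDNA use other arrays than the 72-hour and 120-hour values, but they too are a description. Lower starting levels in My5/CRBN cells enter some of the differences between the lines. Without lenalidomide, the log2 difference of My5/CRBN against My5/LV cells with EIF2C2 cDNA was -0.91 for miR-205-5p and -2.66 for miR-135a-5p, and without the cDNA it was -1.19 for miR-135a-5p.

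The shRNA and the cDNA of EIF2C2 without lenalidomide gave other patterns. In My5/CRBN cells with sh72 none of the 5 was at least 3 fold higher or lower, where 12.9% of all miRNAs were lower. miR-205-5p (-1.22) and miR-455-5p (-1.15, and -0.35 with a cap of 32) had negative and miR-135a-5p (1.24) a positive log2 fold change. Each was beyond the control-well SD of 0.30, and the median over all miRNAs was -0.52. The Ct of miR-205-5p and miR-455-5p was above 30 on both arrays. Duplicate wells of cel-miR-39-3p, at a Ct of 31.5 or more, differed by a root mean square of 1.43 cycles, more than either value. The calls at 3 fold depended on the normalizer. With RNU6 alone miR-205-5p (-1.67) and miR-455-5p (-1.61) were at least 3 fold lower, and with the reverse transcription control wells miR-205-5p (-1.60) was. With the global mean miR-135a-5p (1.79) was at least 3 fold higher. With sh72 in My5/LV cells only miR-205-3p was at least 3 fold higher (3.08 fold), where 1.88% of all miRNAs were, at a Ct of 34.2 without and 33.4 with sh72. It was under 3 fold with RNU6 alone (log2 fold change 0.64), the reverse transcription control wells (1.55) or a cap of 32 (0.82). miR-135b-5p had a log2 fold change of -1.51, just inside the threshold, and was past it with the reverse transcription control wells (-1.59). With RNU6 alone 3 members were at least 3 fold lower, miR-135b-5p (-2.49), miR-135a-5p (-1.62) and miR-455-5p (-1.60).

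With EIF2C2 cDNA in My5/CRBN cells, miR-205-5p was 4.87 fold and miR-135b-5p 3.46 fold lower, where 6.18% of all miRNAs were at least 3 fold lower. Each call was lost under 1 alternative, miR-205-5p with a cap of 32 (log2 fold change -0.62) and miR-135b-5p with the global mean (-1.55). miR-135a-5p had a log2 fold change of -1.25 and miR-455-5p one of 0.95, with a control-well SD of 0.56. With EIF2C2 cDNA in My5/LV cells, miR-205-3p was 6.11 fold higher (rank 3), where 5.91% of all miRNAs were at least 3 fold higher, and its Ct was 34.2 without and 32.6 with the cDNA. With a cap of 32 its log2 fold change was 0.98. miR-135b-5p had a log2 fold change of -1.43, and was past 3 fold with the global mean (-1.61), RNU6 alone (-2.07) or the reverse transcription control wells (-1.75). Between the lines with EIF2C2 cDNA, miR-135a-5p was 6.30 fold lower in My5/CRBN cells, where 9.14% of all miRNAs were at least 3 fold lower. Between the lines with sh72, none of the 5 passed 3 fold, and only 12 of the 372 miRNAs were at least 3 fold higher and 3 lower in My5/CRBN cells.

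The Ct of miR-205-3p minus that of miR-205-5p compares the arms of 1 hairpin within an array, and the normalizer cancels in it. The efficiencies of the assays may differ, so the gap is not a ratio of levels, but its change between arrays can be read. The gap in My5/LV cells was 3.53 cycles without treatment, 1.85 with sh72, 0.54 with EIF2C2 cDNA, 2.65 after 72 hours of lenalidomide, 2.12 after 120 hours, and 2.12 with EIF2C2 cDNA and lenalidomide. In My5/CRBN cells it was 2.70 without treatment, 1.94 with sh72, 0.16 with EIF2C2 cDNA, 5.90 after 72 hours, 7.90 after 120 hours, and 5.16 with EIF2C2 cDNA and lenalidomide. The gap was thus wider on the 3 lenalidomide arrays of My5/CRBN cells than on any of the other 9, and narrowest with EIF2C2 cDNA alone in either line.

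With lenalidomide the gap widened in My5/CRBN cells by 3.20 cycles at 72 hours and 5.20 at 120 hours, and narrowed in My5/LV cells by changes of -0.89 and -1.41. In the pair with EIF2C2 cDNA it widened by 4.995 cycles in My5/CRBN and by 1.58 in My5/LV cells. The change of 4.995 cycles was the largest among 63 hairpins with both arms under Ct 35 on all 12 arrays. Of these hairpins 8 changed by at least 3 fold, and the median size was 0.44 cycles. On its control array both arms lay near the cap, at a Ct of 33.7 (5p) and 33.8 (3p), where single wells are of low precision. With lenalidomide they were at 27.4 and 32.6, so most of the widening came with the 5p arm, on which the members were picked. The 3 changes in My5/LV cells were ranks 13, 20 and 7 of 63 by size. EIF2C2 cDNA alone narrowed the gap by changes of -2.54 cycles in My5/CRBN and -2.99 in My5/LV cells, and sh72 by -0.76 and -1.69. In My5/LV cells the narrowing with EIF2C2 cDNA came with a change of miR-205-3p, whose normalized Ct went from 14.05 to 11.44, and in My5/CRBN cells with a change of miR-205-5p, from 9.52 to 11.80.

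**Figure D3:**
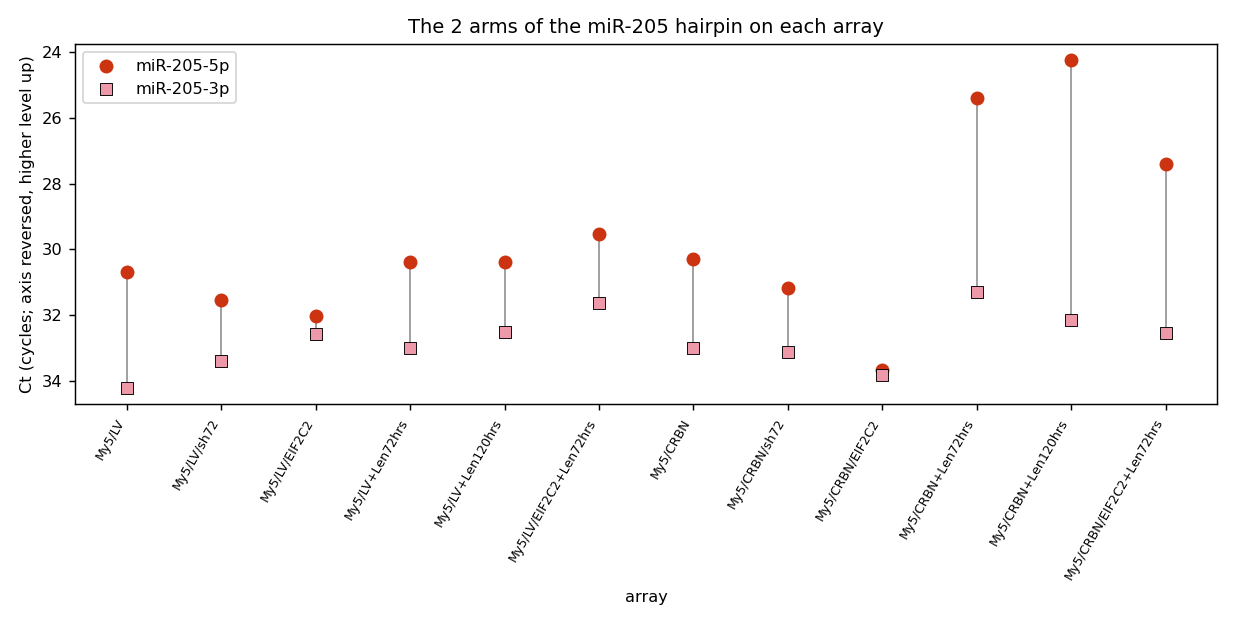
Ct in cycles (vertical axis, reversed so that higher levels lie higher) of miR-205-5p (circles) and miR-205-3p (squares) on each of the 12 arrays (horizontal axis), joined by a line whose length is the gap between the arms. The gap is 5.90, 7.90 and 5.16 cycles on the 3 My5/CRBN arrays with lenalidomide and at most 3.53 on the others, while the 3p arm stays between 31.3 and 34.2.

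The miR-135 paralogs moved together over the arrays, with Pearson's r at 0.87 and Spearman's rho at 0.80 between their normalized Ct values over 12 arrays, and an r of 0.73 over the 9 arrays other than the lenalidomide-treated My5/CRBN arrays. The arrays share a normalizer for all assays, so these correlations are a description. miR-205-5p and miR-455-5p fell into 2 separate sets of arrays, and within the 9 without the lenalidomide-treated My5/CRBN arrays their r was -0.31. The likeness of these 2 miRNAs thus rested on 3 arrays. Between the arms of miR-205 the r over 12 arrays was -0.14.

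**Figure D4:**
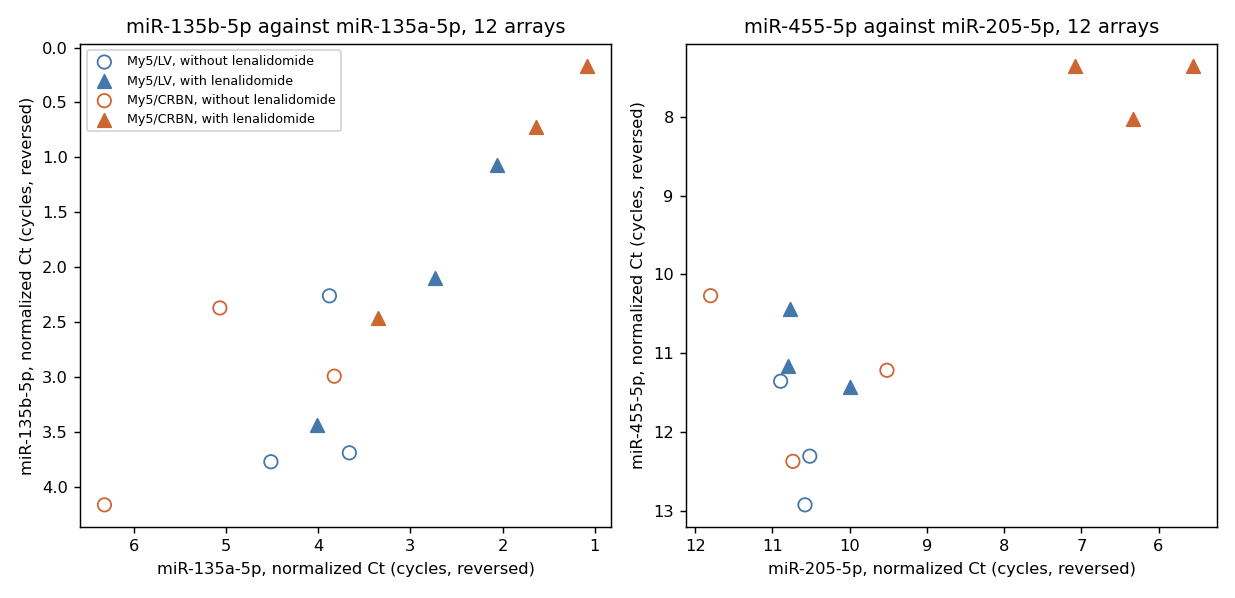
Normalized Ct in cycles (both axes, reversed so that higher levels lie up and to the right) of miR-135b-5p against miR-135a-5p (left) and of miR-455-5p against miR-205-5p (right), with 1 point for each of the 12 arrays, blue for My5/LV and orange for My5/CRBN, and filled triangles for lenalidomide. The left points spread along a diagonal, with an r of 0.87, whereas on the right 3 My5/CRBN lenalidomide arrays lie apart from the other 9, within which r was -0.31.

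For each member the 3 most similar miRNAs, among those with a Ct below 35 on every array, were found by the Pearson r of the normalized Ct over the 12 arrays. miR-135b-5p was most like miR-10b-5p (0.94), miR-10a-5p (0.91), both encoded in HOX gene clusters, and miR-26a-5p (0.85), and over the 9 arrays without the lenalidomide-treated My5/CRBN cells the r values were 0.97, 0.85 and 0.79. miR-135a-5p was most like miR-10b-5p (0.83) and miR-10a-5p (0.81) too, with 0.74 and 0.64 over those 9 arrays, and then miR-139-3p (0.79 and 0.62).

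miR-455-5p was most like the myeloid miRNA miR-223-3p (0.93), miR-143-3p (0.93) and miR-21-5p (0.89), with r values of 0.87, 0.82 and 0.90 over the 9 arrays. miR-223-3p had log2 fold changes with lenalidomide of 1.66, 1.95 and 1.51 in My5/CRBN cells (72 hours, 120 hours, and EIF2C2 cDNA with 72 hours), and of 0.72, 1.80 and 1.06 in the same conditions of My5/LV cells, where miR-455-5p had 3.18, 3.86 and 2.91 in My5/CRBN and 0.88, 1.86 and 0.19 in My5/LV cells. The miRNAs most like miR-205-5p, miR-22-3p (0.79), miR-324-3p (0.77) and miR-499a-5p (0.77), had r values of only -0.16, 0.26 and 0.14 over the 9 arrays. For miR-205-3p they were miR-34a-3p (0.69), miR-187-3p (0.67) and miR-221-3p (0.64), with 0.69, 0.63 and 0.71 over the 9. With the global mean as normalizer, miR-455-5p had the same 3 most similar miRNAs and each of the other 4 members kept 2 of 3, with miR-22-3p no longer among those of miR-205-5p.

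The miRNAs known from the same tissues as miR-205 and miR-455 are given as a description. miR-205 and miR-455 were picked for their increase in My5/CRBN cells. A list not picked on that increase would be likely to change less, so the contrast supports nothing. Of 13 assays of epithelial miRNAs (the miR-200 family, miR-203a, and the miR-182, miR-183 and miR-96 cluster), 1 passed 3 fold upwards in My5/CRBN cells after 72 hours of lenalidomide, miR-200c-5p with a log2 fold change of 1.85, and none after 120 hours or with EIF2C2 cDNA. Their median log2 fold changes in these 3 comparisons were -0.26, -0.32 and -0.16, beside 0.30, -0.15 and 0.15 over all miRNAs. In My5/LV cells, 1 was higher (miR-200a-3p, 1.95) and 1 lower after 120 hours, miR-203a, which was at the cap with lenalidomide so that its value of -2.38 is a bound, and none passed 3 fold in the other 2 comparisons. Neither of the 2 assays of miR-140, which like miR-455 is known from cartilage, passed 3 fold in any of the 6 lenalidomide comparisons, and their medians lay between -0.24 and 0.66.

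Of the 8 blood-lineage marker assays, 2 were at least 3 fold higher in each of the 3 My5/CRBN comparisons. Of all 372 miRNAs, 9.95% (72 hours), 5.11% (120 hours) and 8.33% (EIF2C2 cDNA with 72 hours) were. After 72 hours the 2 assays were the arms of 1 hairpin, miR-223-3p and miR-223-5p. In the My5/LV comparisons 0, 1 and 0 of the 8 were higher, beside 0.538%, 4.3% and 0.269% of all miRNAs. In My5/CRBN cells 0, 1 and 0 were lower, beside 6, 50 and 9 of the 372 miRNAs. In My5/LV cells 0, 2 and 0 were lower, beside 2, 53 and 43. The part of the blood-lineage miRNAs in the changes of the members was not tested.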

How the data were processed

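Per the methods, total RNA of OCI-My5 cells was isolated with the miRNeasy kit, made into cDNA with the miScript II kit and measured on miScript miRNA PCR Arrays in an Applied Biosystems real-time instrument. As deposited by the authors, the table holds the Ct of each well for 12 arrays, without normalization. A second deposited table, with linear ratios made by the kit maker's online software, was not used. Here Ct values above 35 or undetermined were set to 35, and 1 to 5 wells per array were undetermined. The mean of 6 small-RNA control wells was subtracted. No Ct cap or normalizer was found in the sources used here. Counts of at least 3 fold were made over all 372 miRNAs in 20 comparisons, 11 of them recomputed under the alternatives, with no test, as each condition has 1 array. Each value rests on 1 well, and arrays have no sequencing depth. The method was tested on simulated data.

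The members and lists were chosen with earlier results of these data known. The miRNAs named are all member assays, the 3 most similar miRNAs per member, and epithelial, cartilage or blood miRNAs of the lists. miR-144-5p and miR-30c-1-3p, next in rank to members, were added with their values already known. The 6 alternatives were the mean over 314 miRNAs detected below Ct 35 on every array (global mean), RNU6 alone, the SNORD wells without RNU6, or the reverse transcription control wells as normalizer, a Ct cap of 32, and miRNAs under Ct 35 on both arrays. Computations used Python 3.11.15 with pandas 2.3.3 and NumPy 2.4.6, and figures Matplotlib 3.10.9. Sequences and coordinates are those of RefSeq (GRCh38.p14).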

Additional observations from a re-analysis of the deposited data

Results flagged for a closer look

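The cell lines changed in opposite directions in 3 cases, each beyond the SD of the control wells, and with 1 array per condition the differences were not tested. In each case an alternative gave the lines the same sign. After 120 hours of lenalidomide miR-205-3p had a log2 fold change of -1.23 in My5/CRBN and 1.15 in My5/LV cells, a difference of -2.38, and with a Ct cap of 32 the values were -2.09 and -0.55, though the assay is then at the cap on all of these arrays. With sh72, miR-205-3p had values of -0.45 in My5/CRBN and 1.63 in My5/LV cells, a difference of -2.08, and with the global mean as normalizer the values were 0.09 and 2.49. In both cases its Ct was above 32 on all arrays compared, and it was 34.2 on the un-treated My5/LV array. With sh72, miR-135a-5p had values of 1.24 in My5/CRBN and -0.63 in My5/LV cells, a difference of 1.88, and with the global mean 1.79 and 0.23.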

How the results depend on the processing

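No paired analysis was possible because each condition has 1 array. The counts of members at least 3 fold higher in the 3 My5/CRBN lenalidomide comparisons stayed within 1.5 times of 4 under the 6 alternatives. In My5/CRBN cells after 72 hours it was 3 with the global mean and with the reverse transcription control wells, by the loss of miR-135b-5p. In My5/CRBN/EIF2C2 cells the count was 3 when RNU6 alone or the global mean was the normalizer, and with un-treated My5/CRBN as control array (chosen after seeing the data). The count for My5/LV cells after 120 hours of lenalidomide was 1 instead of 2 when the cap was 32, by the loss of miR-455-5p. The single member past 3 fold, miR-205-3p, was lost (count 0) in un-treated My5/CRBN against My5/LV cells with RNU6 and with the cap of 32, in My5/LV/sh72 with RNU6, the reverse transcription control wells and the cap of 32, and in My5/LV/EIF2C2 with the cap of 32. In My5/CRBN/sh72 the global mean gave a count of 1 in place of 0. Members at least 3 fold lower went from 0 to 2 in My5/CRBN/sh72 and from 0 to 3 in My5/LV/sh72 with RNU6, to 1 in both with the reverse transcription control wells, and from 2 to 1 in My5/CRBN/EIF2C2 against My5/CRBN with the global mean and with the cap of 32. In My5/LV/EIF2C2 against My5/LV the count went from 0 to 1 with the global mean, RNU6 and the reverse transcription control wells. It also went from 0 to 1 in the lenalidomide comparison of My5/LV/EIF2C2 cells with RNU6 and the cap of 32, and in My5/CRBN cells after 120 hours with the cap of 32, where miR-205-3p was at the cap on both arrays. Under the cap of 32 every Ct of an assay above 32 is the same, so those changes of miR-205-3p are lost by construction. For the others the cause was not tested. No direction of a value past 3 fold was reversed. Of the 55 log2 fold changes of the members, 30 moved by more than the control-well SD with RNU6, 25 with the global mean, 18 with the cap of 32, 10 with the reverse transcription control wells and 0 with the SNORD wells. The median log2 fold change of all miRNAs in the lenalidomide comparison of My5/CRBN/EIF2C2 cells was 0.15 with the 6 control wells, -0.09 with the global mean and -0.30 with RNU6, and in My5/CRBN cells after 72 hours it was 0.30, -0.05 and 0.33. After 72 hours 19 miRNAs were higher and 10 lower with the global mean (37 and 6 with the control wells), and after 120 hours 31 and 40 (19 and 50). A single array per condition and Ct values above 30 limit what can be said of miR-205-3p.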
